A study of Mus musculus with 6 samples.

Results

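The IL-1 and IL-36 family in mouse uterus is described here through 10 genes out of 37060 in the deposited table, taken by symbol: the cytokines Il1a, Il1b, Il33, Il36a and Il36b, the receptor antagonists Il1rn and Il36rn, and the receptors Il1r1, Il1rl1 and Il18r1. All 10 were in the table and all 10 passed the filter on low values. The set was chosen by the values of the SRC-2d/d and SRC-2f/f columns themselves, with results of the same comparison known, so their differences between genotypes are a description and support nothing by themselves. RNA of whole uteri on gestation day 5, around the time the embryo attaches, was sequenced from 3 SRC-2d/d mutant mice and 3 SRC-2f/f control mice, 1 library per mouse. SRC-2, the product of Ncoa2, works with steroid receptors, the progesterone receptor among them, as a transcriptional coactivator. For the SRC-2d/d mice the sources used here do not name what drives the deletion or in which cells it took place, nor do they name the strain or age of either genotype or any treatment.

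Values are normalized counts, that is reads assigned to a gene divided by a scaling factor of the library, and they are not divided by gene length. The libraries held 129905950 to 195782326 reads in SRC-2d/d mice and 138811835 to 163196592 reads in SRC-2f/f mice, and 3 reads correspond to a normalized count of 2.48 to 3.41. Ncoa2 had 7620, 6667 and 7409 normalized counts in SRC-2d/d libraries 1 to 3, against 13207, 13090 and 14495 in SRC-2f/f libraries 1 to 3, a log2 difference of -0.91 ± 0.20 (SE, limma adjusted p = 0.00953). Its adjusted p was 0.0583 without SRC-2f/f 2 and 0.0585 without SRC-2f/f 3, with differences of -0.94 and -0.86. A gene was called when limma, fitted to log2(normalized count + 1) of all 36154 genes with a mean of at least 0.5, gave a Benjamini-Hochberg adjusted p under 0.05. Differences are SRC-2d/d minus SRC-2f/f on that log2 scale, and a ratio is the SRC-2d/d mean over the SRC-2f/f mean of normalized counts.

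IL-1α (Il1a) and IL-1β (Il1b) bind the receptor IL1R1, which then recruits the shared chain IL1RAP and signals through MYD88 and IRAK kinases to NF-κB and MAP kinases, while the antagonist IL1RN occupies IL1R1 without signalling. IL-36 cytokines use IL1RL2 with the same shared chain and are blocked by IL36RN, IL-33 uses IL1RL1 (ST2), and IL-18 uses IL18R1 with IL18RAP. IL-1α and IL-33 are alarmins, stored in cells and released on damage, and IL-36 cytokines are known mainly from epithelia such as skin. In the uterus IL-1 signalling has been studied for its part in attachment of the embryo and in the response of the stroma.

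The family lies mainly in a pair of gene clusters, and neighbours within them differed in how they behaved. Stretches of 120 bases before the transcription start are shown for a neighbouring pair of which Il1a was called and Il1b was not, and for Il36b and Il18r1, the members called under each of the 19 alternative settings. The sequences are RefSeq promoters (build GRCm38.p6), printed 5′ to 3′ in the direction of transcription and ending at the base before the start. They lie at chr2:129309973-129310092 on the minus strand for Il1a, at chr2:129371140-129371259 on the minus strand for Il1b, at chr2:24153052-24153171 on the plus strand for Il36b, and at chr1:40465432-40465551 on the plus strand for the first of 3 listed starts of Il18r1. Capitals mark TATAAA, the core of a TATA box, and TGANTCA, the core of an AP-1 site, found on either strand.
Il1a: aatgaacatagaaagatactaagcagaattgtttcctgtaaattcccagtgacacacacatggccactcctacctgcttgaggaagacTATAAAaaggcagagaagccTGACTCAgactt
Il1b: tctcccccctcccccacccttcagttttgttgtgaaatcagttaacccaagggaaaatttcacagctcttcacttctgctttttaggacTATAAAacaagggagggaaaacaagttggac
Il36b: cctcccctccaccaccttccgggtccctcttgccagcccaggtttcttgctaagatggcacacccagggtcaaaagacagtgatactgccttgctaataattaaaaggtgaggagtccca
Il18r1: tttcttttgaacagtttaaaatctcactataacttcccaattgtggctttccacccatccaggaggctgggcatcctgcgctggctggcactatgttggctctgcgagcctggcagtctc
Il1a and Il1b both hold TATAAA about the same distance before the start, at bases -32 to -27 and -31 to -26, and only Il1a of the pair also holds TGANTCA in these windows, at -12 to -6. In the stretch from 250 bases before to 50 bases after each start, Il36b holds TGANTCA at -236 to -230, outside the printed bases. The uncalled Il1rn holds TGANTCA at -141 to -135 of start 1 and TATAAA at 15 to 20 of start 3. Il33, called lower, holds TATAAA at -203 to -198 of start 1 and at -29 to -24 of start 2. Neither motif was found for Il1r1, Il1rl1, Il36rn or Il18r1, so called and uncalled members are among those with and without a match. TATAAA is in 13.6% and TGANTCA in 7.81% of the 32851 promoter windows of this length. Promoters were found for 9 of the 10 members, with no entry for Il36a, and a match is only a match of letters.

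Of the 10 members 6 were called higher in SRC-2d/d uteri (Il1a, Il1r1, Il36a, Il36b, Il36rn and Il18r1), 1 was called lower (Il33) and 3 were not called (Il1b, Il1rn and Il1rl1). Over all genes tested 9.42% were called, 5.34% as higher and 4.08% as lower. For the same 6 members every SRC-2d/d value lay above every SRC-2f/f value, for Il33 every SRC-2d/d value lay below, and for the other 3 the genotypes overlapped. The genotypes did not overlap for 25.5% of all genes tested, with SRC-2d/d above for 13.4% and below for 12.1%. The members' median difference was 1.73, against -0.01 for all genes tested, and their differences ran between -1.58 and 3.34. With eBayes without trend, only Il36b and Il18r1 of the members were called, and with robust eBayes Il1a and Il36a were not called.

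**Figure D1:**
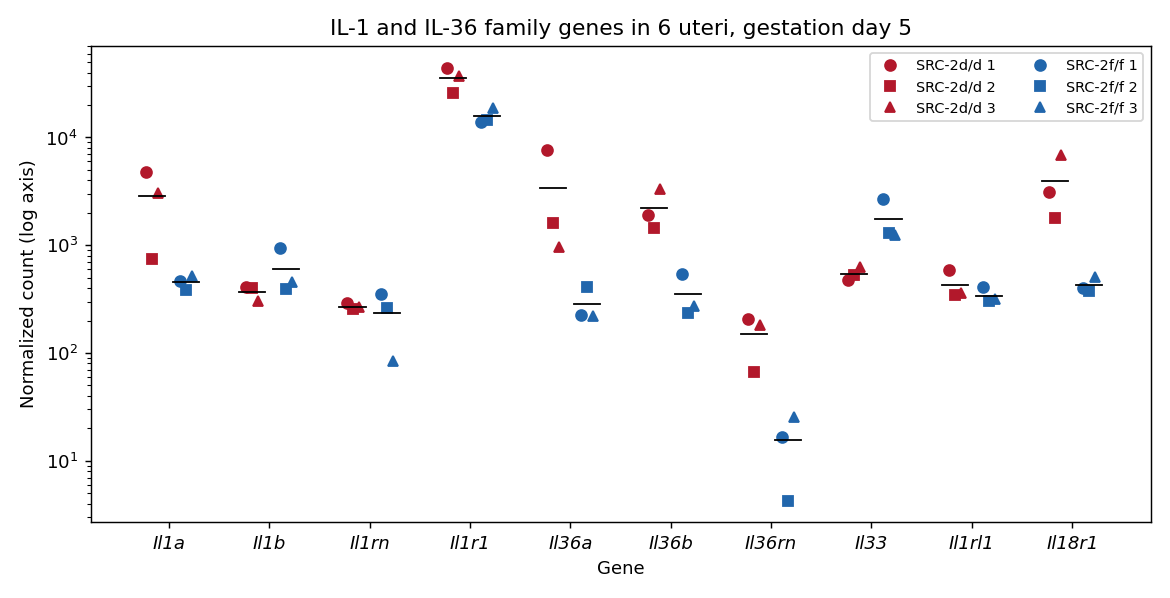
Normalized counts (log axis) of the 10 genes in each uterus; red symbols are SRC-2d/d mice, blue symbols are SRC-2f/f mice, shapes mark libraries 1 to 3 and bars mark group means. For Il1a, Il1r1, Il36a, Il36b, Il36rn and Il18r1 the 3 SRC-2d/d points lie above the 3 SRC-2f/f points, for Il33 they lie below, and for Il1b, Il1rn and Il1rl1 the groups overlap.

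Among the IL-1 ligands, Il1a and Il1b moved apart. Il1a had 4804, 751 and 3031 normalized counts in SRC-2d/d libraries 1 to 3, against 464, 381 and 522 in SRC-2f/f libraries 1 to 3. SRC-2d/d 1 and 3 stood far above the controls and SRC-2d/d 2 only a little above the highest of them. The means were 2862 ± 2032 in SRC-2d/d and 456 ± 71.3 in SRC-2f/f (SD, n = 3 each), a ratio of 6.28 and a log2 difference of 2.29 ± 0.50 (SE). The ratio was 4.15 without SRC-2d/d 1. The call was lost without SRC-2d/d 3, SRC-2f/f 1, SRC-2f/f 2 or SRC-2f/f 3, with differences of 2.07, 2.31, 2.17 and 2.40.

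Il1b, the ligand that caspase-1 cleaves into its active form, had 409, 406 and 303 normalized counts in SRC-2d/d uteri, against 945, 397 and 452 in SRC-2f/f uteri. SRC-2f/f 1 was the highest library, SRC-2d/d 3 was the lowest, and the remaining values of both genotypes lay between 397 and 452. The log2 difference was -0.58 ± 0.36 (SE), and it was -0.20 without SRC-2f/f 1. In each library the Il1a count divided by the Il1b count was 11.7, 1.85 and 10.01 in SRC-2d/d, against 0.491, 0.960 and 1.16 in SRC-2f/f. Il1a thus exceeded Il1b in all 3 mutants and in 1 of 3 controls, a ratio that no scaling between libraries changes.

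The antagonist Il1rn had 291, 254 and 266 normalized counts in SRC-2d/d, against 357, 260 and 84.5 in SRC-2f/f. The SRC-2d/d values all lay within the range of the SRC-2f/f values, whose lowest library was SRC-2f/f 3. The log2 difference of 0.44 ± 0.48 (SE) became -0.17 without SRC-2f/f 3. Relative to the summed counts of both IL-1 ligands, Il1rn stood at 0.0558, 0.219 and 0.0799 in SRC-2d/d, against 0.253, 0.334 and 0.0867 in SRC-2f/f, and the groups overlapped.

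Il1r1, the signalling receptor of both IL-1 ligands, had the highest mean of the members in both genotypes by normalized counts per exon length. It had 44527, 25851 and 37242 normalized counts in SRC-2d/d, against 13929, 14648 and 18978 in SRC-2f/f. The lowest SRC-2d/d library, SRC-2d/d 2, was above the highest control. The ratio was 2.26 and the log2 difference 1.16 ± 0.24 (SE), and the call was lost without SRC-2f/f 1 or SRC-2f/f 2, with differences of 1.07 and 1.11. Il1r2, the decoy receptor that binds IL-1 without signalling, had 448, 491 and 343 normalized counts in SRC-2d/d, against 674, 418 and 558 in SRC-2f/f, and was not called (log2 difference -0.35, limma adjusted p = 0.569). The Il1r1 count was 99.5, 52.7 and 109 times the Il1r2 count in SRC-2d/d libraries, against 20.7, 35.0 and 34.0 times in SRC-2f/f libraries, without overlap. This ratio is not corrected for exon length, so it compares libraries and not the levels of the receptors. Il1rap, the shared chain of the IL-1, IL-33 and IL-36 receptors, had 1493, 1921 and 2494 normalized counts in SRC-2d/d, against 1801, 1697 and 2026 in SRC-2f/f (log2 difference 0.07, limma adjusted p = 0.906).

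The IL-36 members were higher in every SRC-2d/d uterus, but the libraries that carried the signal differed between them. Il36a had 7598, 1623 and 964 normalized counts in SRC-2d/d, against 226, 408 and 219 in SRC-2f/f. SRC-2d/d 1 held most of the mutant signal, and SRC-2d/d 3 was the lowest mutant. The ratio of means was 11.9 and fell to 4.55 without SRC-2d/d 1, where the log2 difference was 2.20 in place of 3.06 ± 0.57 (SE). Its call was lost without SRC-2f/f 3, with a difference of 2.91.

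Il36b had 1924, 1441 and 3315 normalized counts in SRC-2d/d, against 542, 237 and 272 in SRC-2f/f. Here SRC-2d/d 3 was the highest library and SRC-2f/f 1 the highest control. The ratio was 6.35 and the log2 difference 2.67 ± 0.37 (SE). The Il36a count over the Il36b count was 3.95, 1.13 and 0.291 in SRC-2d/d, against 0.417, 1.72 and 0.805 in SRC-2f/f, so the balance of these neighbouring genes did not separate the genotypes.

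Il36rn, the antagonist of the IL-36 receptor, had the lowest mean in both genotypes by normalized counts per exon length and the members' largest difference. It had 206, 66.6 and 181 normalized counts in SRC-2d/d, against 16.7, 4.28 and 25.5 in SRC-2f/f, where the lowest value is close to the level of 3 reads. The log2 difference was 3.34 ± 0.71 (SE) and the ratio 9.76. Il36a at 3.06 and Il18r1 at 2.98 lay within the SE of that difference, and Il36a had a higher ratio, 11.9. Against the summed counts of Il36a, Il36b and Il36g, Il36rn stood at 0.0169, 0.0190 and 0.0399 in SRC-2d/d, against 0.0117, 0.00552 and 0.0367 in SRC-2f/f, and the groups overlapped.

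Il36g encodes the remaining IL-36 agonist and was no member. It had 2637, 445 and 263 normalized counts in SRC-2d/d, against 658, 128 and 203 in SRC-2f/f, and was not called (log2 difference 1.39 ± 0.72 SE, limma adjusted p = 0.283). It was called with array weights and with the replicate block, and its ratio of 3.38 became 1.07 without SRC-2d/d 1. SRC-2d/d 1 was its highest library, as it was for Il36a, but SRC-2f/f 1 exceeded the other 2 mutants. Il1rl2, the receptor of the IL-36 cytokines, had 3854, 3962 and 6151 normalized counts in SRC-2d/d, against 6006, 6499 and 8446 in SRC-2f/f (log2 difference -0.60 ± 0.24 SE, limma adjusted p = 0.149), and the groups overlapped. Its point estimate was thus below 0 where those of the 3 agonists and the antagonist were above 0.

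Il33 was the only member called lower. It had 475, 535 and 631 normalized counts in SRC-2d/d, against 2691, 1300 and 1238 in SRC-2f/f. The mutants lay close together, and SRC-2f/f 1 stood above the other controls, which were near each other. The ratio was 0.314 and the log2 difference -1.58 ± 0.32 (SE), with -1.22 without SRC-2f/f 1. Its receptor Il1rl1 had 588, 347 and 360 normalized counts in SRC-2d/d, against 408, 303 and 315 in SRC-2f/f, with a log2 difference of 0.31 ± 0.33 (SE) and overlapping groups. The Il33 count over the Il1rl1 count was 0.807, 1.54 and 1.75 in SRC-2d/d, against 6.60, 4.30 and 3.94 in SRC-2f/f. This ratio is not corrected for exon length. Per kb of exon Il33 was above Il1rl1 in SRC-2d/d 1 too, at 165 against 85.4 normalized counts.

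Il18r1, the ligand-binding chain of the IL-18 receptor, had 3138, 1777 and 6814 normalized counts in SRC-2d/d, against 399, 379 and 507 in SRC-2f/f. All 3 mutants were above the controls by more than the whole range of the controls, and SRC-2d/d 3 was the highest. The ratio was 9.13, or 5.74 without SRC-2d/d 3, and the log2 difference 2.98 ± 0.39 (SE). Il18rap, the signalling chain of that receptor, had 1404, 888 and 1624 normalized counts in SRC-2d/d, against 492, 557 and 801 in SRC-2f/f, and was called higher (log2 difference 1.07 ± 0.31 SE, limma adjusted p = 0.0423). That call was lost in 7 of 19 settings, among them leaving out any library but SRC-2d/d 2, with adjusted p between 0.00758 and 0.194 over the settings. Per library the Il18r1 count was 2.23, 2.00 and 4.20 times the Il18rap count in SRC-2d/d, against 0.811, 0.679 and 0.633 times in SRC-2f/f. Here too exon length is not corrected for, so the ratio compares libraries and not the levels of the chains.

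Il18, the ligand of that receptor, had 549, 512 and 1749 normalized counts in SRC-2d/d, against 394, 414 and 256 in SRC-2f/f, without overlap between genotypes and without a call (log2 difference 1.18 ± 0.43 SE, limma adjusted p = 0.108). It was called by DESeq2 and by limma without SRC-2d/d 2, and its ratio of 2.64 became 1.496 without SRC-2d/d 3. Il18bp, a soluble protein that binds IL-18, had 2839, 1649 and 3387 normalized counts in SRC-2d/d, against 1566, 1394 and 809 in SRC-2f/f (log2 difference 1.05 ± 0.32 SE, limma adjusted p = 0.0540). It was called in 4 of 19 settings: robust eBayes, array weights, DESeq2, and limma without SRC-2d/d 2. The receptor, its ligand and its binding protein thus all had higher means in SRC-2d/d uteri, and of these the receptor chains were called.

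Sigirr, a family receptor that dampens IL-1 and toll-like receptor signalling, was the other called gene outside the members. It had 4694, 3251 and 3992 normalized counts in SRC-2d/d, against 1723, 2088 and 2239 in SRC-2f/f (log2 difference 0.97 ± 0.23 SE, limma adjusted p = 0.0165), and its call was lost without SRC-2d/d 1 or any 1 of the controls. In all, 2 of the 11 other family genes were called higher and 0 lower by limma, with a median difference of 0.97. At an unadjusted p under 0.05, 4 were higher and 1 lower, edgeR called 2 higher and 0 lower, and DESeq2 called 4 higher and 0 lower. Il1f10, Il1rapl1 and Il1rapl2 were low, with at most 4.54, 38.6 and 15.6 normalized counts in any library, and were not called.

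**Figure D2:**
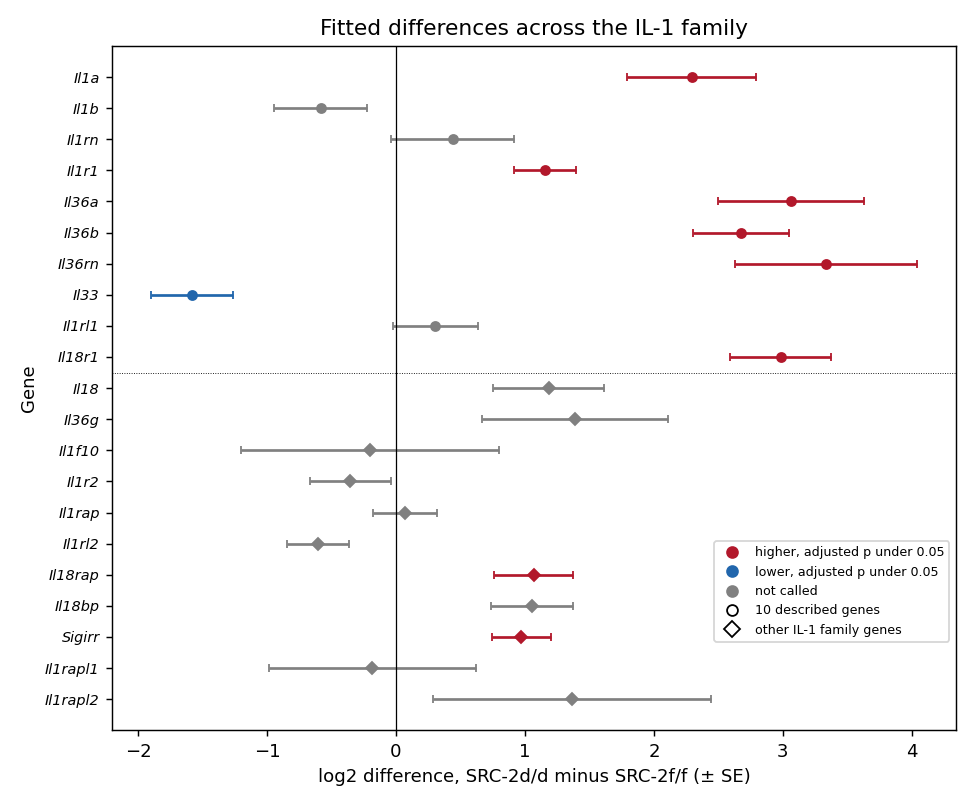
Log2 difference between SRC-2d/d and SRC-2f/f uteri for the 10 described genes (circles, above the dotted line) and the other 11 family genes (diamonds); bars are standard errors from limma, red marks genes called higher, blue genes called lower and grey genes not called. Il36rn has the highest value at 3.34 and Il33 the lowest at -1.58.

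Dividing by exon length (GENCODE M21) gave an approximate comparison of levels between genes. The lengths are unions of all annotated exons, and which transcripts were expressed was not measured. In SRC-2d/d uteri the order was Il1r1 at 5638 ± 1479 normalized counts per kb, Il36a at 3845 ± 4139, Il36b at 1830 ± 800, Il1a at 1450 ± 1029 and Il18r1 at 812 ± 541, then Il1b at 195 ± 31.7, Il33 at 189 ± 27.3, Il1rl1 at 62.6 ± 19.7, Il1rn at 48.8 ± 3.40 and Il36rn at 33.6 ± 16.5 (SD, n = 3). From Il1r1 down to Il18r1 each neighbouring pair differed by less than the larger SD of the pair, as did Il1b and Il33, and from Il1rl1 down to Il36rn. In SRC-2f/f uteri Il1r1 stood at 2491 ± 429 normalized counts per kb, Il33 at 604 ± 285, Il36a at 322 ± 122, Il1b at 314 ± 158, Il36b at 288 ± 137, Il1a at 231 ± 36.1, Il18r1 at 88.9 ± 14.3, Il1rl1 at 49.6 ± 8.35, Il1rn at 42.2 ± 24.9 and Il36rn at 3.45 ± 2.37. There Il33 to Il1a formed a run in which each neighbouring pair differed by less than the larger SD of the pair, and Il1rl1 and Il1rn also lay within their spread. Il33 was second in SRC-2f/f and below Il1a, Il36a, Il36b and Il18r1 in SRC-2d/d. In SRC-2d/d 1 alone Il36a, at 8604 normalized counts per kb, exceeded Il1r1, at 6998.

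By chromosomal order in RefSeq, the chromosome 2 cluster reads Il36b, Il36g, Il36a, Il36rn, Il1f10 and Il1rn, with 3 of these 6 called higher, and Il1a and Il1b lie farther along. The chromosome 1 cluster reads Il1r2, Il1r1, Il1rl2, Il1rl1, Il18r1 and Il18rap, with 3 of 6 called higher. In neither cluster did the called genes form a single unbroken run. Il36g, not called at a difference of 1.39 ± 0.72 (SE), lies between Il36b and Il36a, so that break rests on the threshold. Il1rl2 and Il1rl1, with differences of -0.60 and 0.31, lie between Il1r1 and Il18r1. Il33 is on chromosome 19, away from both.

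**Figure D3:**
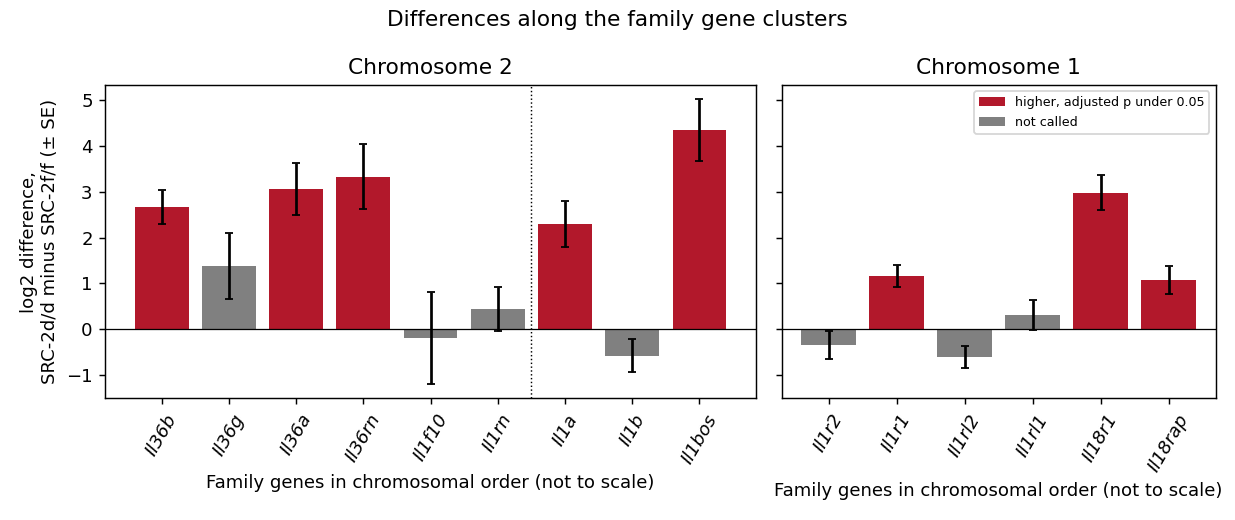
Log2 difference (SRC-2d/d minus SRC-2f/f, with standard errors from limma) for family genes in their order along chromosomes 2 and 1; distances are not to scale, and the dotted line sets apart the Il1a and Il1b region. Called genes (red) have uncalled genes (grey) between them in both clusters, and Il1bos stands at 4.35 beside Il1b at -0.58.

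In the GENCODE M21 annotation a pair of members overlap a gene of the opposite strand, both chosen for mention after their values were seen. Il1b shares 25 of its 1907 exon bases with the antisense gene Il1bos, which had 120, 79.1 and 89.3 normalized counts in SRC-2d/d, against 2.64, 2.14 and 8.15 in SRC-2f/f, where it rested on 3, 2 and 8 reads. Il1bos was called higher (log2 difference 4.35 ± 0.68 SE, limma adjusted p = 0.00099), and its count was 0.294, 0.195 and 0.295 of the Il1b count in SRC-2d/d, against 0.00279, 0.00539 and 0.0180 in SRC-2f/f. Il1a shares 222 of its 1974 exon bases with Gm14023, which had 247, 88.4 and 176 normalized counts in SRC-2d/d, against 103, 82.3 and 93.7 in SRC-2f/f (log2 difference 0.75, limma adjusted p = 0.382). The library kit keeps strand, but the sources used here do not give the strand setting of the authors' counting, so reads within the shared bases cannot be told apart.

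The members did not share a ranking of libraries within a genotype. Among the mutants SRC-2d/d 1 was highest for 7 of the 10 members, and SRC-2d/d 2 was lowest for 7 and highest for 0. Among the controls SRC-2f/f 1 was highest for 5 members and SRC-2f/f 2 lowest for 6. The highest mutant was 7.88 times the lowest for Il36a, 6.40 times for Il1a, 3.84 times for Il18r1 and 3.09 times for Il36rn. Among controls the widest spreads were 5.95 times for Il36rn, 4.22 times for Il1rn, 2.38 times for Il1b and 2.28 times for Il36b.

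Of 19 genes for processing and release of IL-1 family cytokines, limma called 3 higher and 0 lower, with a median difference of 0.18. At an unadjusted p under 0.05, 4 were higher and 1 lower, edgeR called 3 higher and 0 lower, and DESeq2 called 3 higher and 1 lower, which was Mefv. Casp1, the protease that matures IL-1β and IL-18, had 4508, 4270 and 9581 normalized counts in SRC-2d/d, against 2032, 1605 and 1457 in SRC-2f/f (log2 difference 1.76 ± 0.30 SE, limma adjusted p = 0.0019). Pycard, the adaptor that joins sensors to caspase-1, rose by 1.17 ± 0.26 (limma adjusted p = 0.0100), and Casp4, the caspase that senses lipopolysaccharide inside cells, by 1.15 ± 0.26 (limma adjusted p = 0.0128). Without SRC-2f/f 2 or without SRC-2f/f 3 only 1 gene of this list was called higher.

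Of 26 genes for signalling below the receptors, limma called 4 higher and 1 lower, with a median difference of 0.13. Nfkbia, the NF-κB inhibitor that NF-κB itself induces, had 43550, 28960 and 36955 normalized counts in SRC-2d/d, against 11386, 10494 and 11785 in SRC-2f/f (log2 difference 1.68 ± 0.22 SE, limma adjusted p = 0.000203). Nfkbiz, a nuclear cofactor of NF-κB, rose by 1.85 ± 0.34 and Rel, an NF-κB subunit, by 1.58 ± 0.22. Myd88, the adaptor of the receptors, completes the count and was named after its values were seen, with a rise of 0.84 ± 0.22 (limma adjusted p = 0.0287). The Myd88 call was lost in 6 of 19 settings, among them leaving out any 1 of the controls, and the Nfkbiz call in 2. Irak4, also named after its values were seen, was not called (limma adjusted p = 0.0506) but was called in 8 settings. Irak3, a kinase relative that restrains the pathway, had 1246, 1726 and 1496 normalized counts in SRC-2d/d, against 2877, 2389 and 3344 in SRC-2f/f, and fell by 0.95 on the log2 scale (limma adjusted p = 0.0228). The list's call of a lower gene was lost without SRC-2d/d 1 or any 1 of the controls, and without SRC-2f/f 3 the genes called higher were 2 in number.

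Of 25 genes that IL-1 family cytokines are known to induce, 2 were called higher and 3 lower, with a median difference of -0.27, and they did not move together. Lcn2, an iron-binding antimicrobial protein, had 164474, 41913 and 184221 normalized counts in SRC-2d/d, against 1471, 553 and 941 in SRC-2f/f, a log2 difference of 6.89 ± 0.47 (SE). Csf3, the growth factor of neutrophils, had 18032, 7419 and 4105 normalized counts in SRC-2d/d, against 109, 170 and 56.0 in SRC-2f/f, a log2 difference of 6.32 ± 0.48 (SE). Mmp3, a matrix protease, had 126, 173 and 266 normalized counts in SRC-2d/d, against 1543, 783 and 853 in SRC-2f/f, and S100a8, a calcium-binding protein of myeloid cells, had 126, 125 and 299 in SRC-2d/d, against 873, 630 and 648 in SRC-2f/f. Both were called lower, by 2.48 and 2.07 on the log2 scale, as was Nos2, the inducible nitric oxide synthase, by 1.72 (limma adjusted p = 0.0213), named after its values were seen. The Nos2 call was lost in 4 of 19 settings. Without SRC-2d/d 1 the genes of this list called lower were 5 in number. Cxcl1 had 341, 125 and 85.2 normalized counts in SRC-2d/d, against 454, 37.4 and 56.0 in SRC-2f/f, and Ptgs2 had 2847, 2343 and 996 in SRC-2d/d, against 838, 1431 and 1980 in SRC-2f/f. These inflammatory genes, also named after their values were seen, were not called and overlapped between genotypes.

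**Figure D4:**
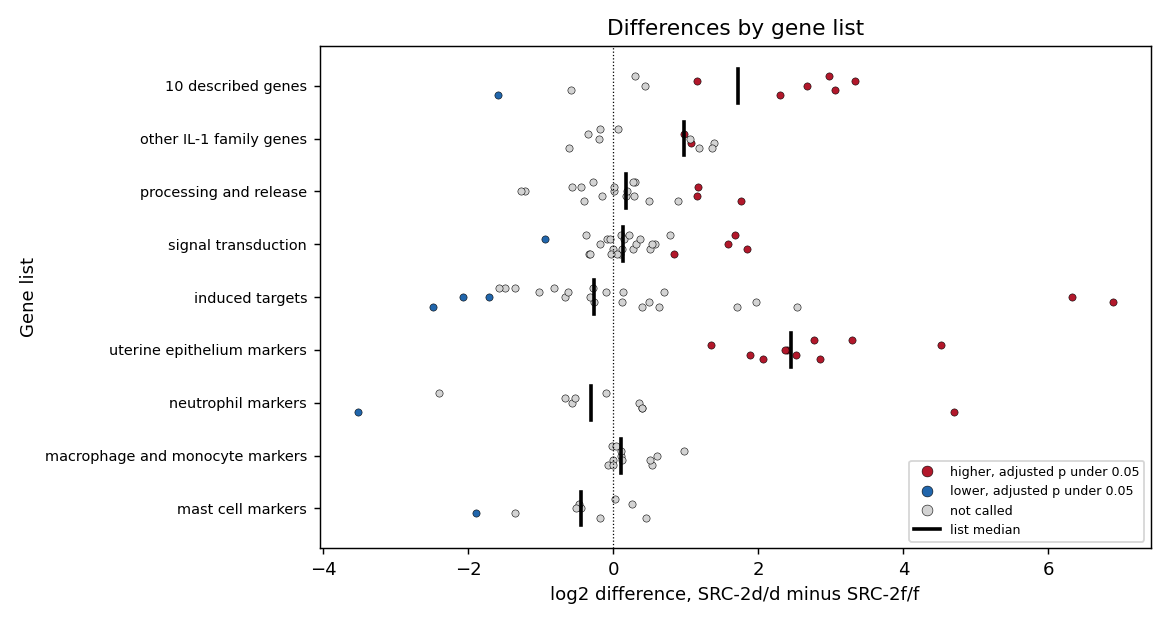
Log2 difference (SRC-2d/d minus SRC-2f/f) of each tested gene in 9 lists; each dot is a gene, red and blue dots were called higher and lower, and black bars are list medians. The median is 1.73 for the 10 described genes, 2.46 for uterine epithelium markers, 0.11 for macrophage and monocyte markers and -0.27 for induced targets.

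In whole uterus, fewer cells of a type and less RNA per cell cannot be told apart, and several lists of cell markers moved with the genotype. All 10 of 10 uterine epithelium markers were called higher in SRC-2d/d, with a median difference of 2.46, and their summed normalized counts were 359777 to 811453 in SRC-2d/d, against 99706 to 106368 in SRC-2f/f. Of 14 stratified squamous markers 6 were higher and 1 lower, with sums of 3693 to 9846 in SRC-2d/d, against 2461 to 2812 in SRC-2f/f. Of 10 stroma markers 4 and of 9 endothelium markers 5 were called lower by limma, and 0 of either list were higher by limma, edgeR, DESeq2 or an unadjusted p under 0.05. With a library left out the calls numbered 9 to 10 for uterine epithelium, 2 to 6 higher for stratified squamous, 1 to 6 lower for stroma and 0 to 9 lower for endothelium. The endothelium sums were 46056 to 90775 in SRC-2d/d, against 116422 to 172104 in SRC-2f/f, and the stroma sums overlapped at 1165890 to 2360080 in SRC-2d/d, against 2153960 to 2985650 in SRC-2f/f. SRC-2d/d 2 had the mutants' lowest uterine epithelium sum and their highest stroma and endothelium sums, so it lay nearest the controls in these lists. The part of these shifts in the members' differences was not tested.

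As a description chosen after the values were seen, members were also divided by the summed epithelial markers of the same library. Per 1000 epithelial marker counts Il1a stood at 8.75, 2.09 and 3.74 in SRC-2d/d, against 4.36, 3.60 and 5.24 in SRC-2f/f, and Il36b at 3.51, 4.004 and 4.09 in SRC-2d/d, against 5.10, 2.25 and 2.73 in SRC-2f/f. Il36a stood at 13.8, 4.51 and 1.19 in SRC-2d/d, against 2.12, 3.87 and 2.20 in SRC-2f/f, and Il18r1 at 5.71, 4.94 and 8.40 in SRC-2d/d, against 3.75, 3.58 and 5.09 in SRC-2f/f. On this scale Il1a, Il36a, Il36b, Il36rn and Il18r1 overlapped between genotypes, and the other 5 members lay lower in SRC-2d/d. Since the mean epithelial sum in SRC-2d/d was 5.52 times that in SRC-2f/f, the scale lowers every gene in SRC-2d/d: 69.7% of all genes tested lay lower without overlap on it and 1.39% higher, so the lower position of those 5 says nothing about them. Il1a, Il36a, Il36b, Il36rn and Il18r1 had ratios of 6.28 to 11.9 before this division, so their overlap also follows from values already known. Which cells hold the members' RNA was not measured.

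Calls among markers of the blood cells that make or receive IL-1 family cytokines are given list by list. For comparison, 9.42% of all genes tested were called, 5.34% as higher and 4.08% as lower, and 12.1% lay lower without overlap. Of 12 macrophage and monocyte markers limma called 0 in either direction, with sums of 99347 to 105081 in SRC-2d/d, against 85018 to 122571 in SRC-2f/f; 2 were higher and 0 lower at an unadjusted p under 0.05, and edgeR and DESeq2 called 0. SRC-2f/f 1, the highest library for Il1b, Il1rn and Il33, also had the highest macrophage and monocyte, dendritic cell and T cell sums. The sum of mast cell markers without Kit was likewise highest there. Its neutrophil, NK cell and group 2 innate lymphoid cell sums were not the highest, nor was its mast cell sum with Kit. Of 10 neutrophil markers 1 was higher (Ly6g) and 1 lower (Camp, a call lost in 13 of 19 settings, edgeR among them), with sums of 4553 to 6930 in SRC-2d/d, against 3154 to 5009 in SRC-2f/f. Of 9 mast cell markers, cells that carry IL1RL1, 1 was lower (Kit), with sums of 1686 to 3370 in SRC-2d/d, against 5571 to 9481 in SRC-2f/f. Kit made up most of that sum, and the other 8 markers together overlapped, at 394 to 538 in SRC-2d/d, against 358 to 1191 in SRC-2f/f. Among 8 markers of group 2 innate lymphoid cells, which respond to IL-33, Arg1 was higher and Areg and Hlf were lower. The sums overlapped at 4288 to 20838 in SRC-2d/d, against 4382 to 5824 in SRC-2f/f. Arg1 alone had 11218, 1413 and 19032 normalized counts in SRC-2d/d, against 323, 190 and 298 in SRC-2f/f. It made up most of the sum in SRC-2d/d 1 and 3, so the overlap of the sums does not describe the other markers. T cell markers (8) and NK cell markers (8), cells that carry the IL-18 receptor, had 0 calls by limma, edgeR and DESeq2. At an unadjusted p under 0.05, 1 NK cell marker was higher. Of 7 dendritic cell markers 1 was lower (Zbtb46), with sums of 3884 to 5438 in SRC-2d/d, against 5900 to 7520 in SRC-2f/f. Zbtb46 was the largest part of each sum, at 1931, 2301 and 1508 in SRC-2d/d, against 3385, 3283 and 3873 in SRC-2f/f. Of the 7 markers 2 lay lower without overlap and 5 overlapped between genotypes. Of 7 smooth muscle markers 1 was called lower (Des) and 5 lay lower without overlap, with sums of 415627 to 552801 in SRC-2d/d, against 667619 to 722427 in SRC-2f/f. No marker of any list was at 0 in every library. The part of these cell types in the members' differences was not tested.

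The gene with a mean of at least 100 whose log2 values followed a member most closely over the 6 libraries was Cd24a for Il18r1, a surface protein (Pearson r = 0.999), Patj for Il36b, a protein of epithelial tight junctions (r = 0.997), and P2ry2 for Il1a, a receptor for ATP and UTP (r = 0.996). For Il1r1 it was Atxn7l1 (r = 0.997), for Il33 Ralgps1 (r = 0.992), for Il1b Klf7 (r = 0.985) and for Il36a Gm12227 (r = 0.987). For Il1rl1 it was Gm43533 (r = 0.994) and for Il1rn Gm42934 (r = 0.985). Each was the highest of about 17978 genes over only 6 libraries, which differ in genotype and depth, so such values are reached readily and serve only as a description.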

How the data were processed

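Per the labels' protocols, total RNA of whole uterus went into a stranded poly(A) library kit. The tools, per the submitters' processing notes, were HISAT2, HTSeq and DESeq, without versions. The sources used here do not give the genome build, annotation or strand setting. The authors titled the deposited table as FPKM, but its values are a signal in which each library's reads per gene were scaled by 1 size factor: all of them came out as whole reads once rescaled, within 1e-06 of a read. Gene length was therefore not corrected by the authors. The planned log-scale test was kept: limma 3.58.1 (R 4.3.3; lmFit, eBayes with trend) on log2(value + 1), with genotype as the only term, for genes with a mean of at least 0.5, Benjamini-Hochberg over all of them. Differences of low genes are understated on this scale.

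The members, gene lists, marker lists and tests were chosen with earlier results of these data known. Alternatives were 2 smaller pseudocounts (0.1, 0.5), a filter at a mean of 2 or none, 3 other scalings, eBayes without trend or robust, array weights, a replicate block, each library left out in turn, and edgeR 4.0.16 and DESeq2 1.42.0 on the recovered reads. The fits were also run on simulated counts whose spread was set from the mean alone. That spread was not matched to members such as Il36a, and no result given here rests on that run. Named genes are all members and other family genes, Ncoa2, up to 4 called genes per pathway list with the smallest adjusted p, and per member the gene of highest Pearson r, which for Il36rn is not reported here; other names were added after their values were seen. Of the induced targets, Defb4 was not analysed here. Exon lengths are unions of GENCODE M21 exons (GRCm38), and promoters are from RefSeq (GRCm38.p6), where the IL-36 genes were matched through older symbols.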

Additional observations from a re-analysis of the deposited data

How the results depend on the processing

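Under 19 alternatives, 175 of 190 member values kept their direction and their side of the threshold, 14 kept their direction but were no longer called, and 1, of the uncalled Il1rn, changed sign to -0.17 without SRC-2f/f 3. Il36b and Il18r1 were called in all 19. The 3405 calls over all genes became 998 with eBayes without trend and 5332 with array weights, and ranged from 1328 to 5411 with a library left out. The 5411 calls came without SRC-2d/d 2 and the 1328 without SRC-2f/f 3. Count tests of the whole reads gave 1996 higher and 1293 lower calls with edgeR, and 2533 higher and 1832 lower calls with DESeq2. Without trend, 2 members were called higher and 0 lower, and Ncoa2 had an adjusted p of 0.119 at the same difference of -0.91; leaving out a library gave Ncoa2 differences of -0.95 to -0.85. Other family genes called higher numbered 2, but 1 with a pseudocount of 0.1, 0 without trend, 4 with array weights, 4 with DESeq2 and 0 to 4 with a library left out. Processing genes called higher were 3, but 0 without trend and 1 to 3 with a library left out, and DESeq2 called 1 lower. Signalling genes called higher were 4, but 2 without trend and as few as 2 with a library left out, and the 1 called lower became 0 without trend and 0 to 1 with a library left out. Induced targets called higher were 4 with DESeq2, and those called lower were 1 without trend and 2 to 5 with a library left out. The cause of these changes was not tested, and fits with a library left out also have fewer samples. Same-numbered libraries correlated by 0.376, 0.0146 and 0.0274 in their deviations from group means, and different-numbered ones by -0.408 to 0.341. Such values from groups of 3 cannot tell whether the numbers pair the mice. With the replicate block 2104 genes were called higher and 1708 lower, and each member kept its call. Groups of 3 were too small to look for outlying libraries.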
